A study of Homo sapiens with 7 samples.

Results

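Helicases that resolve G-quadruplexes (G4s, 4-stranded DNA or RNA structures built from runs of guanine) were examined as genes whose own loci may be bound by CTCF. The 8 genes were DHX36, DDX5, PIF1, BRIP1, RTEL1, DDX11, BLM and WRN, chosen by name for their reported activity on G4s, out of 20090 protein-coding genes of the annotation on the autosomes and X. For each gene, every CTCF peak that overlapped the gene or lay within 20 kb of it was taken from the deposited lists on hg19, which gave 19 peaks in non-treated (control) cells and 15 in cells treated with pyridostatin (PDS). CTCF is a zinc finger protein that binds DNA at many sites and helps to set the boundaries of chromatin loops, and chromatin immunoprecipitation with sequencing (ChIP-seq) maps the DNA it occupies.

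The study used K562, an established human leukaemia cell line, and asked how CTCF occupancy looks under conditions that favour G4s. Control cells were not treated and gave 2 CTCF libraries and 1 library made with non-specific immunoglobulin (IgG), while treated cells received 10 μM PDS, a small molecule that binds and stabilizes G4s, for 24 h and gave 2 CTCF and 2 IgG libraries. Each condition has 1 peak list, called jointly on its libraries, with 33094 peaks in control cells and 32917 in PDS-treated cells. Neither list gives read counts. Library depth is therefore unknown, no spread between replicates can be given, and the difference in IgG libraries cannot be told apart from the treatment.

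G4s form where runs of guanine lie close together, and a folded G4 can stall DNA polymerases or sit in a transcribed bubble until a helicase unwinds it. The helicases studied here belong to several families with different main tasks: DEAH- and DEAD-box proteins that act largely on RNA (DHX36, DDX5), the PIF1 family, iron-sulphur cluster helicases that work in DNA repair, telomere upkeep and sister chromatid cohesion (BRIP1, RTEL1, DDX11), and RecQ helicases that guard recombination and replication (BLM, WRN). A G4-stabilizing ligand can make G4s harder to unwind, and how far PDS does so for each of these helicases was not measured here. The peak lists report CTCF binding only and hold no measure of the expression or activity of these genes.

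G4 motifs at the starts of these genes were about as common as at other genes. A G4 motif was counted where 4 runs of at least 3 G had 1 to 7 nt between neighbouring runs, on the plus or the minus strand of GRCh37, which is the hg19 sequence. Within 1 kb of the gene start, 5 of the 8 genes held at least 1 motif, and 65.6% of all protein-coding genes did. BLM, BRIP1, PIF1 and RTEL1 held 1 each, in all 4 cases on the coding strand, WRN held 5, and DHX36, DDX11 and DDX5 held none. None of these 9 motifs lay in a CTCF peak of either list, although the BLM start itself was bound. Such overlap is rare, at 7.04% (control) and 6.51% (PDS) of the motifs within 1 kb of all protein-coding gene starts. The 4 that were single in their window are shown as examples of the motif. The G runs are in capitals and each sequence is read on the strand of its gene.
BLM, chr15:91259922-91259936, plus strand, centred 648 bp upstream of the gene start: GGGaGGGcGGGaGGG
BRIP1, chr17:59940883-59940907, minus strand, centred 25 bp into the gene and partly in its untranslated first exon: GGGagtcgaGGGGGcGGGaggcGGG
PIF1, chr15:65118301-65118321, minus strand, centred 444 bp upstream: GGGGGcGGGGGaGGGattGGG
RTEL1, chr20:62289060-62289089, plus strand, centred 88 bp upstream: GGGGccttctGGGGccttctGGGGcatGGG

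A further 3 motifs are shown because they were the G4 motifs that did overlap a CTCF peak near these genes, and all 3 lay in the flanks, nearer to other genes than to the helicase. The motif upstream of PIF1 lay in a peak of both lists beside the start of PLEKHO2. The first RTEL1 motif lay in an intron of the canonical transcript of STMN3, a stathmin family gene that acts on microtubules, and only the control peak reached it. The other RTEL1 motif lay in an intron of ARFRP1, a small GTPase gene, in a peak of both lists. All 3 are given on the minus strand with G runs in capitals.
PIF1 upstream, chr15:65133830-65133867: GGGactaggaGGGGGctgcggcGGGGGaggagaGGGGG
RTEL1 upstream, chr20:62273402-62273422: GGGGccGGGGcGGGGccGGGG
RTEL1 downstream, chr20:62338587-62338605: GGGacGGGGtGGGagaGGG

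Matches to the CTCF consensus known from ChIP with exonuclease digestion (15 letters, several of them open to more than 1 base) were sought in the same peaks on both strands. Exact matches were found in 2 of 19 control peaks (10.5%, and 17.3% of all control peaks) and in 2 of 15 PDS peaks (13.3%, and 14.4% of all PDS peaks), and these were the same pair of sites in both lists. With 1 mismatch allowed, 9 of 19 control peaks (47.4%, against 54.3% of all) and 9 of 15 PDS peaks (60.0%, against 46.2% of all) held a match. The pair of exact sites is shown with 5 of the 1-mismatch sites, which lie in peaks of both lists except for that of BRIP1, with the match in capitals and 7 flanking bases on either side in lower case.
PIF1 downstream, chr15:65102281-65102309, minus strand, exact: ctgcagaCCACTAGGTGGCGCCaattggt
DDX5 downstream in POLG2, chr17:62487321-62487349, minus strand, exact: gaggccaGCAGTAGGAGGCAGCagtgagc
DHX36 downstream in ARHGEF26, chr3:153971010-153971038, minus strand, 1 mismatch: ccggcgtCCAGCAGGGGGCAGAgcccatc
BRIP1 intron, chr17:59914762-59914790, minus strand, 1 mismatch: cttgggtCCAGCAGAGTGCGCTgttgacc
BLM downstream, chr15:91362046-91362074, plus strand, 1 mismatch: gcagcaaCCACTAGGAGGCAGGggctcaa
RTEL1 downstream, chr20:62338286-62338314, plus strand, 1 mismatch: gcacaaaACCGAAGGGGGCGCCgccaggc
DDX5 downstream, chr17:62493587-62493615, minus strand, 1 mismatch: gcctaggCCACCTGGCGGCAGCatttgcc

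All 8 genes had at least 1 peak in the gene or within 20 kb in each list. Among all protein-coding genes, 77.4% had such a peak in control cells and 73.9% in PDS-treated cells, so a peak at this distance is common. The helicase genes had a median length of 45.2 kb, against 27.3 kb for all protein-coding genes. Counts per gene are therefore not matched for length. The helicase genes differed in how many peaks they had, from 1 (BRIP1 and DDX11 in both lists, DHX36 and WRN in the PDS list) to 4 (PIF1 in both lists, DDX5 in the control list). Per 100 kb of gene and flanks the helicases had 2.14 control peaks and 1.69 PDS peaks, and all gene windows had 2.09 and 2.14. Inside the helicase genes themselves lay 5 of 19 control peaks (26.3%, Wilson 95% interval 11.8 to 48.8 for counting error only) and 3 of 15 PDS peaks (20.0%, interval 7.05 to 45.2). Over the same windows of all protein-coding genes the shares were 46.3% and 43.8%, inside both intervals. A peak inside the gene was found for 4 of the 8 helicases in control cells and 3 in PDS-treated cells, near the 49.8% and 46.3% of all protein-coding genes.

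**Figure D1:**
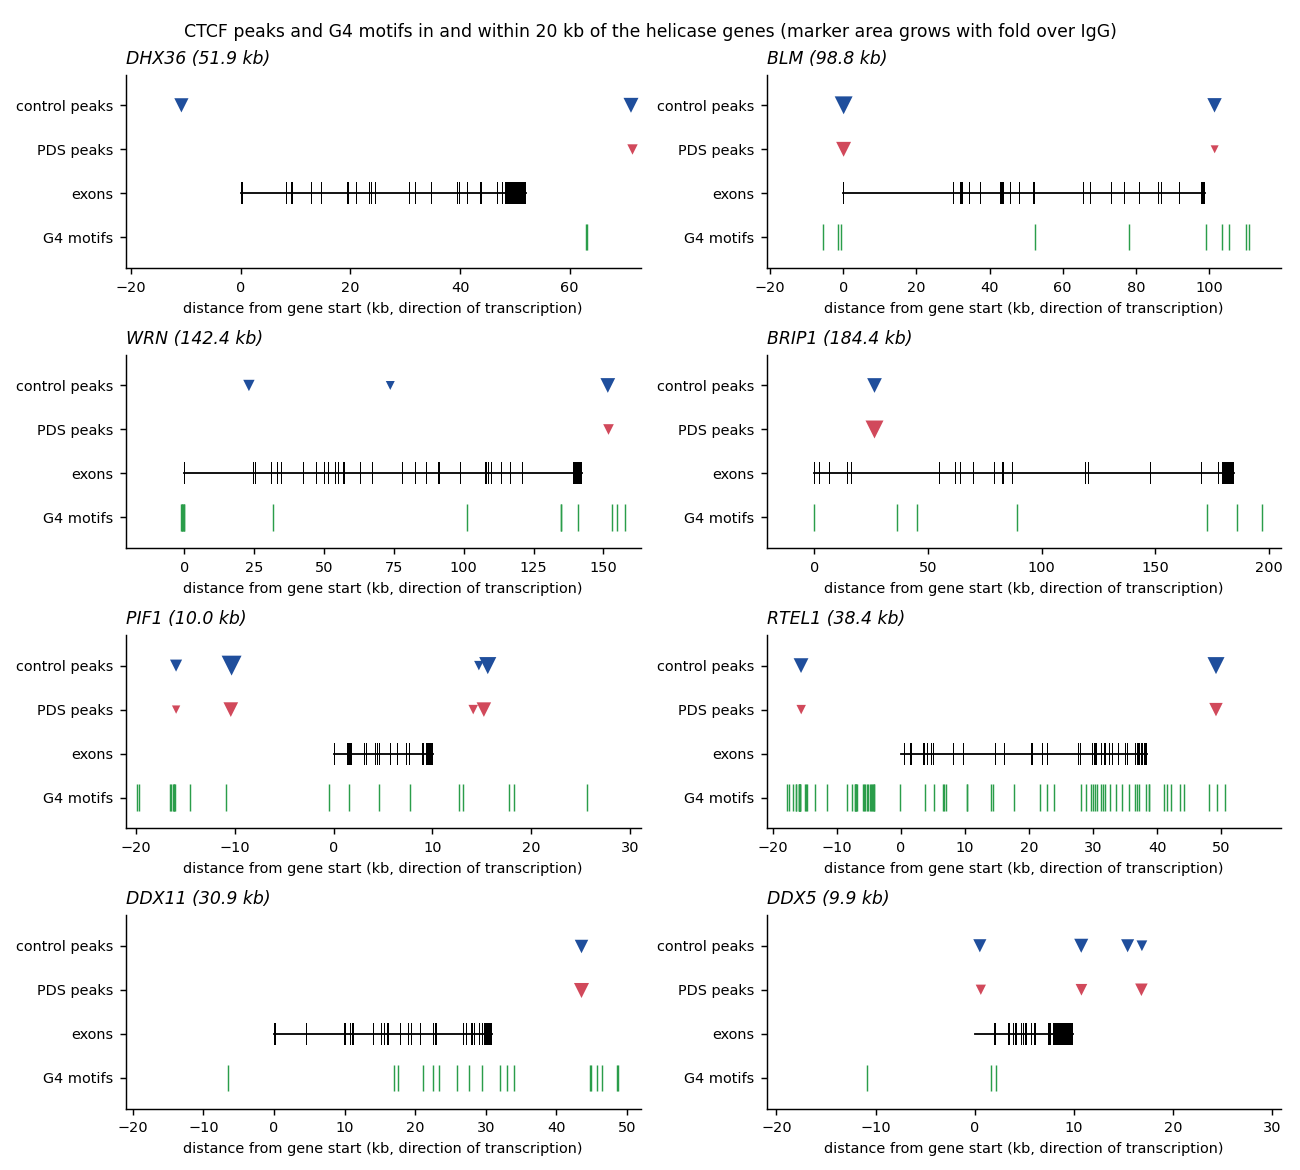
CTCF peaks of the control and PDS lists (triangles, area growing with fold over IgG), exons of the canonical transcript and G4 motifs along each helicase gene, plotted by distance from the gene start in kb in the direction of transcription. The BLM start carries a peak in both lists, the peak pair inside WRN is in the control list alone, and the many RTEL1 motifs lie mostly away from its peaks.

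A CTCF peak within 1 kb of the gene start was found for 2 of the 8 helicases, BLM and DDX5, in both lists. Of all protein-coding genes, 22.3% had a start peak in control cells and 21.0% in PDS-treated cells. The DDX5 call rests on the gene record, whose start lies upstream of the canonical transcript. Measured from canonical starts, 1 of the 8 genes kept a start peak in each list, against 22.6% and 21.3% of all genes. The median distance from a helicase start to its nearest peak was 13.1 kb in control cells and 20.8 kb in PDS-treated cells, and the medians over all protein-coding genes were 11.7 kb and 13.3 kb. The distances of BLM (0 kb), PIF1 (10.1 kb), RTEL1 (15.5 kb), BRIP1 (26.1 and 26.2 kb) and DDX11 (43.3 and 43.4 kb) were nearly equal in both lists, whereas DHX36 (10.7 against 71.1 kb) and WRN (23.0 against 42.1 kb) had their nearest peak farther away in the PDS list.

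**Figure D2:**
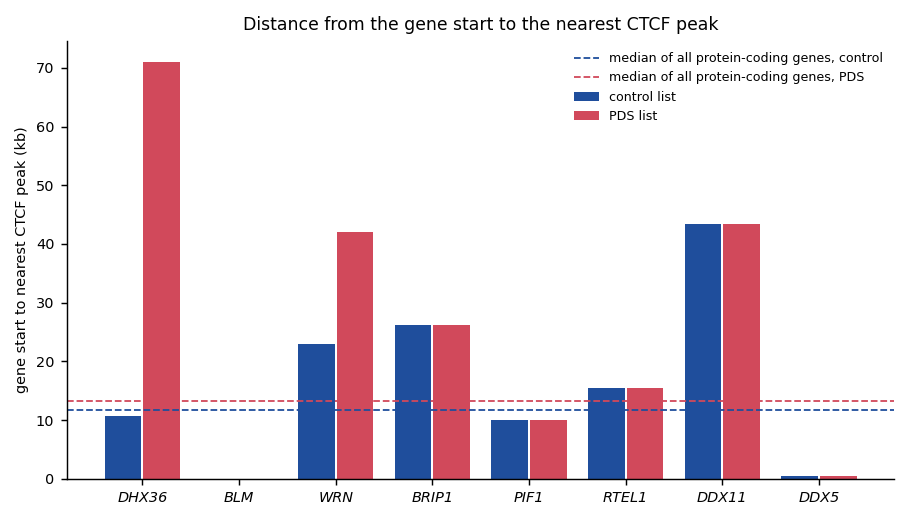
Distance in kb from each helicase gene start to the nearest CTCF peak edge in the control list (blue bars) and the PDS list (red bars), with dashed lines at the medians of all protein-coding genes (11.7 and 13.3 kb). BLM is at 0 in both lists, and the bars differ between lists mainly for DHX36 and WRN.

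DHX36 (ENSG00000174953.14) encodes the DEAH-box helicase that binds G4s tightly and unwinds them in both DNA and RNA. It spans 51.9 kb at chr3:153990335-154042276 on the minus strand with 25 exons, and no peak of either list and no G4 motif lay inside it. The peak of both lists lay past its end, over an exon of the neighbouring ARHGEF26. In the control list it covered chr3:153970801-153971400 (600 bp) with a fold over IgG of 30.3 and rank 12943 of 33094 by fold. In the PDS list it covered chr3:153970801-153971200 (400 bp) with a fold of 12.6 and rank 24637 of 32917. The 1-mismatch CTCF site shown above lay inside both. The control list alone had a peak 10.7 kb upstream of the start, at chr3:154052941-154053300 (360 bp, fold 26.9, rank 16199, deposited p-value 1.21e-06), over an exon of GPR149, an orphan receptor gene, and the nearest PDS peak was 81.7 kb away. Its best match to the CTCF consensus had 4 mismatches.

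DDX5 (ENSG00000108654.16) encodes a DEAD-box RNA helicase that also serves as a transcription cofactor. It is the shortest of the 8 genes, 9.95 kb at chr17:62494372-62504317 on the minus strand, with 13 exons. The start peak was narrow in the control list, chr17:62503741-62503860 (120 bp, fold 22.5, rank 21190), and wider in the PDS list, chr17:62503501-62503900 (400 bp, fold 12.2, rank 25273). The control call was weak: its width is the smallest in that list, its deposited p-value of 8.26e-06 put it at the 2.26 percentile, and its best match to the CTCF consensus had 4 mismatches. In the PDS list it was at the 42.5 percentile by p-value, and the wider PDS peak held a site with 1 mismatch. The peak lay within the DDX5 gene record but 1334 bp (control) and 1094 bp (PDS) upstream of the canonical transcript, in an intron of CEP95, a centrosomal protein gene on the other strand whose start was 758 and 518 bp away. So the same peak can be assigned to either gene.

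Past the end of DDX5 the peaks lay at or in POLG2, which encodes the accessory subunit of the mitochondrial DNA polymerase. A peak of both lists lay 129 bp before the POLG2 start and about 0.5 kb past the DDX5 end, at chr17:62493301-62493840 (fold 26.4, rank 16683) in the control list and chr17:62493301-62493800 (fold 16.8, rank 16256) in the PDS list. It held nearly the same place within each list, at the 49.6 and 50.6 percentiles by fold, where 100 is the highest. The exact CTCF consensus lay farther in, in a POLG2 intron, in a peak at chr17:62487181-62487720 (fold 13.8, rank 28349) in control cells and chr17:62487251-62487750 (fold 20.1, rank 10904) in PDS-treated cells. Between these sites the control list alone had a 900 bp peak at chr17:62488441-62489340 (fold 22.2, rank 21480, deposited p-value 1.06e-09) over a POLG2 exon. It was the widest control peak at any of the 8 genes, and a PDS peak lay 690 bp from it.

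PIF1 (ENSG00000140451.13), the helicase of the PIF1 family that helps replication through G4s and limits telomerase at chromosome ends in yeast, spans 10.0 kb at chr15:65107831-65117867 on the minus strand. No peak overlapped the gene, but the flanks held 4 peaks in each list. The strongest was 10.1 kb upstream, at chr15:65127961-65128380 (420 bp, fold 56.8, rank 2586, deposited p-value 1.99e-20) in control cells and chr15:65127951-65128550 (600 bp, fold 29.0, rank 3443, deposited p-value 2.39e-24) in PDS-treated cells. It had the highest fold of the 19 control peaks and the smallest p-value of the helicase peaks in both lists. The nearest G4 motif was 365 bp from it in control cells and 195 bp in PDS-treated cells.

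Downstream of PIF1 the control list had separate peaks at chr15:65101861-65102700 (840 bp, fold 40.9, rank 6638) and chr15:65103121-65103240 (120 bp, fold 9.82, rank 30592), and a single PDS peak of 1550 bp at chr15:65101901-65103450 (fold 28.5, rank 3728) covered both. The exact consensus site shown above lay under the larger control peak. The only peak of the PDS list without a control partner at any of the 8 genes followed, at chr15:65103701-65103800 (100 bp, fold 9.90, rank 28426, deposited p-value 7.68e-06), 460 bp from the nearest control peak. Its width is the smallest that the PDS list holds. Upstream, the peak 182 bp before the PLEKHO2 start held the 38-base G4 motif shown above, with 6 motifs within 1 kb. It lay at chr15:65133661-65133900 in control cells and chr15:65133651-65133900 in PDS-treated cells. By fold this peak was weak in both lists (18.4, rank 24712, and 6.71, rank 31947). By p-value it was above the middle of both, at the 58.5 and 61.5 percentiles.

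BRIP1 (ENSG00000136492.10), the partner of BRCA1 that is also called FANCJ and unwinds G4s during replication, is the longest of the 8 genes, 184 kb at chr17:59756500-59940920 on the minus strand with 20 exons. Its single peak lay in intron 6, 26.2 kb into the gene. In control cells it covered chr17:59914561-59914800 (240 bp, fold 29.1, rank 14000, deposited p-value 1.86e-10). In PDS-treated cells it covered chr17:59914651-59914750 (100 bp, fold 45.5, rank 451, deposited p-value 1.13e-06). By fold this was the highest of the 15 PDS peaks, at the 98.6 percentile, but by p-value it was at the 23.0 percentile, and it had the smallest width in the PDS list. The 1-mismatch CTCF site shown above lay in the control peak and outside the narrower PDS peak. The nearest G4 motif was 9907 bp from the control peak, and the BRIP1 start motif was over 26 kb away.

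RTEL1 (ENSG00000258366.12), which takes apart telomere loops and G4s at chromosome ends, spans 38.4 kb at chr20:62289163-62327606 on the plus strand with 35 exons. It was by far the richest in G4 motifs, with 75 in the gene and flanks, 30 of them in the gene, of which 21 were on the coding strand and 9 on the template strand. Per 10 kb the gene held 7.8 motifs, at the 86.5 percentile of all protein-coding genes. No peak of either list lay in the gene, and the gene motif nearest to a peak was 10701 bp from it in control cells and 10661 bp in PDS-treated cells.

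Both RTEL1 peaks overlapped exons of the genes on either side and were present in both lists. The downstream one was at chr20:62338141-62338620 (480 bp, fold 40.5, rank 6800, deposited p-value 9.22e-16) in control cells and chr20:62338101-62338650 (550 bp, fold 23.7, rank 6958, deposited p-value 1.06e-15) in PDS-treated cells, with a G4 motif inside and a 1-mismatch consensus site. The starts of ZGPAT, a zinc finger repressor gene, and of ARFRP1 lay 197 and 757 bp from the control peak. The upstream peak, in STMN3, was at chr20:62273401-62273700 (fold 29.6, rank 13484) and chr20:62273451-62273700 (fold 9.71, rank 28681), and 11 G4 motifs lay within 1 kb of it. Its left edge in the PDS list was 50 bp farther in, which placed the motif 28 bp outside the peak. Since PDS peak edges move in steps of 50 bp, and control edges in steps of 60 bp, this difference in motif content rests on a single step.

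DDX11 (ENSG00000013573.17), a helicase that promotes sister chromatid cohesion, spans 30.9 kb at chr12:31226794-31257733 on the plus strand. No peak lay in the gene. The single peak of each list lay 12.4 kb past its end over an exon of a long non-coding RNA gene, at chr12:31270141-31270440 (300 bp, fold 23.9, rank 19514, deposited p-value 6.59e-16) in control cells and chr12:31270151-31270400 (250 bp, fold 30.7, rank 2757, deposited p-value 4.11e-13) in PDS-treated cells. Its place by fold was at the 41.0 percentile in the control list and the 91.6 percentile in the PDS list, while by p-value it was at 88.4 and 72.0. DDX11 lies in duplicated sequence. The whole gene was covered by a block copied at chr12:9567145-9621203 with 95.9% identity, and again at chr12:9436202-9469842 with 96.0%, and part of the peak lay in a block copied at chr12:9546644-9555349 with 96.7%. A longer block with 79.4% identity to chr12:9718471-9731892 held the whole peak. For the other 7 genes the same search found no copy of 1000 bp or more. How well it finds sequence repeated in very many places was not tested. Reads that mapped to more than 1 place were removed upstream, and how far that bears on the empty DDX11 gene was not tested.

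BLM (ENSG00000197299.13), the RecQ helicase that is lost in Bloom syndrome, spans 98.8 kb at chr15:91260577-91359396 on the plus strand with 22 exons and had a CTCF peak over its start in both lists. The peak covered the gene start and overlapped exon 1, which is untranslated. It was at chr15:91260541-91260780 (240 bp, fold 45.2, rank 5120, deposited p-value 3.17e-09) in control cells and at chr15:91260551-91260750 (200 bp, fold 30.1, rank 2957, deposited p-value 3.51e-10) in PDS-treated cells. By fold it stood high in both lists, at the 84.5 and 91.0 percentiles, and by p-value it was near the middle, at 52.2 and 57.9. The start of the long non-coding RNA gene CRTC3-AS1 on the other strand lay 169 bp away, so the peak faces both. Its best matches to the CTCF consensus had 2 and 3 mismatches, and the start motif shown above lay 604 and 614 bp from it. A second pair of peaks lay about 2.6 kb past the gene, at chr15:91362001-91362180 (fold 27.9, rank 15111) and chr15:91362051-91362200 (fold 5.82, rank 32448), the lowest fold of the 15 PDS peaks, over the 1-mismatch site shown above.

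WRN (ENSG00000165392.11), the RecQ helicase that is lost in Werner syndrome and that also carries an exonuclease, spans 142 kb at chr8:30891304-31033654 on the plus strand with 35 exons. Its start window was the richest of the 8, with 5 G4 motifs, 4 of them on the coding strand, and a GC content of 62.6%. The nearest control peak was 23.0 kb away. Both peaks inside the gene were in the control list alone. The peak in intron 1, at chr8:30914341-30914460 (120 bp, fold 15.8, rank 26816, deposited p-value 8.49e-06), had the smallest width that list holds and was at the 1.99 percentile by p-value, and it held a consensus site with 1 mismatch. The peak in intron 18, at chr8:30964921-30965100 (180 bp, fold 8.24, rank 31506, deposited p-value 1.95e-06), had the lowest fold of the 19 control peaks. The nearest PDS peaks were 65.1 and 77.7 kb from them. A peak of both lists lay about 9 kb past the gene, at chr8:31042561-31043220 (660 bp, fold 29.2, rank 13888) and chr8:31042801-31043400 (600 bp, fold 13.4, rank 23384).

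Most helicase peaks were found in both lists. A peak counted as shared where it overlapped a peak of the other list by at least 1 bp. Of the 19 control peaks, 15 were shared (78.9%, Wilson 95% interval 56.7 to 91.5 for counting error only), and 4 had no PDS partner (21.1%, and 22.0% of all control peaks). Of the 15 PDS peaks, 14 were shared (93.3%, interval 70.2 to 98.8), and 1 had no control partner (6.67%, and 21.4% of all PDS peaks, a share inside the interval of 1.19 to 29.8 for the helicases). The 4 peaks of the control list alone were the DHX36 upstream peak, the pair inside WRN and the POLG2 exon peak near DDX5. None of these 5 peaks held a G4 motif, which is also rare among all peaks without a partner (5.33% of those in the control list and 5.89% of those in the PDS list).

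These 1-list peaks were mostly weak calls by p-value. Of the 4 control peaks, 3 were in the lower 50% of their list by p-value, and the POLG2 exon peak, at the 56.7 percentile, was not. Among all control peaks without a partner, 88.5% were in the lower 50%, and their median width was 180 bp against 420 bp for shared ones. The PDS peak downstream of PIF1 was at the 3.82 percentile by p-value, where 98.9% of all PDS peaks without a partner were in the lower 50%.

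Levels of fold cannot be compared between the lists, because each is relative to IgG of its own condition and the list medians were 26.5 in control cells and 16.7 in PDS-treated cells. The median helicase peak sat in the middle of each list, at a fold of 26.9 (range 8.24 to 56.8, 51.1 percentile) in control cells and 16.8 (range 5.82 to 45.5, 50.6 percentile) in PDS-treated cells. Place within the list was therefore compared, for the 13 pairs in which 1 control peak met 1 PDS peak. By fold, 8 of the 13 pairs were lower in the PDS list and 5 higher (61.5% lower, and 48.6% of all 24633 such pairs), with a median shift of -2.65 percentile points (0.685 over all pairs). By p-value, 6 were lower and 7 higher (46.2% lower, and 43.7% of all), with a median shift of 2.98 points (2.30 over all). No direction was common to the helicases under both rankings.

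Most helicase pairs that moved a long way by fold did not move the same way by p-value. How often the 2 rankings disagreed over all pairs was not counted. The largest rises by fold were those of DDX11 (41.0 to 91.6), the POLG2 intron peak near DDX5 (14.3 to 66.9) and BRIP1 (57.7 to 98.6), and all 3 fell by p-value (88.4 to 72.0, 72.4 to 60.3 and 62.9 to 23.0). The BLM downstream peak (54.3 to 1.43), the RTEL1 upstream peak (59.3 to 12.9), the DHX36 peak (60.9 to 25.2) and the WRN downstream peak (58.0 to 29.0) were lower by fold in the PDS list. By p-value the first 3 of these were higher (8.71 to 23.0, 30.1 to 45.6 and 45.2 to 79.0), and of these 4 the WRN peak was the one lower under both rankings (58.0 to 34.7). The strong PIF1 upstream peak (92.2 to 89.5) and the RTEL1 downstream peak (79.5 to 78.9) barely moved by fold, and the BLM start peak was higher under both (84.5 to 91.0 by fold, 52.2 to 57.9 by p-value). The DDX5 start peak was lower by fold (35.9 to 23.2) and had the largest rise of the 13 pairs by p-value (2.26 to 42.5). The PIF1 peak beside PLEKHO2 was also lower by fold (25.3 to 2.95) and slightly higher by p-value (58.5 to 61.5). With 1 list per condition, no spread stands beside any of these shifts.

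**Figure D3:**
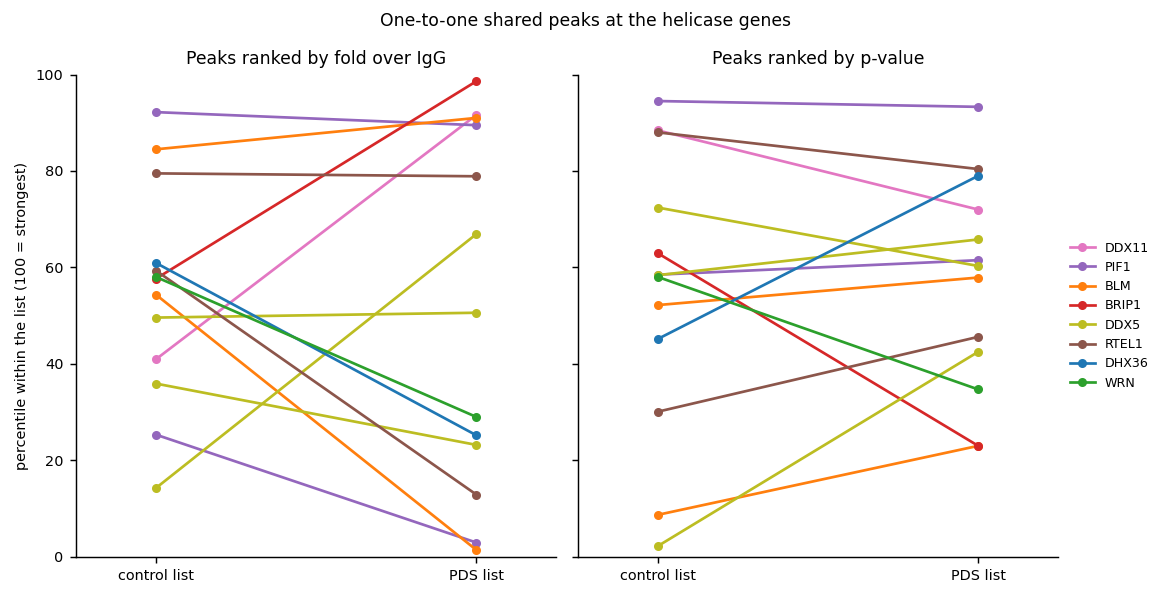
Percentile within the control and the PDS list (100 is the strongest) of the 13 helicase peaks paired one to one, ranked by fold over IgG (left) and by p-value (right), coloured by gene. BRIP1 and DDX11 rise by fold (to 98.6 and 91.6) and fall by p-value, and the BLM start peak rises slightly in both panels.

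G4 motifs near the helicases rarely lay in CTCF peaks. Of the 19 control peaks, 3 overlapped a motif (15.8%, interval 5.52 to 37.6), and 16.0% of all control peaks did. Of the 15 PDS peaks, 2 did (13.3%, interval 3.74 to 37.9), and 17.1% of all PDS peaks did. Both helicase shares were close to the background of their list, and the drop from 3 to 2 is the STMN3 peak edge described above. The order between the lists depended on the setting. When 1000 bp around the middle of the peak were searched, the shares were 15.8% (control) and 26.7% (PDS). This stretch ran past the edges of every helicase control peak (widest 900 bp) and of most PDS ones, so it can count motifs outside them. With loops of up to 12 nt the shares were 26.3% and 26.7%. Neither of these settings was applied to all peaks, so the shares under them have no background to be set against. Within 1 kb of a peak, a motif was present for 5 of 19 control peaks (26.3%, interval 11.8 to 48.8, and 43.8% of all). The same held for 7 of 15 PDS peaks (46.7%, interval 24.8 to 69.9, and 46.8% of all). Both shares of all peaks lay inside these intervals.

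Counted from the motifs, the 8 genes and their flanks held 148, of which 55 lay in the genes (30 on the coding and 25 on the template strand) and 93 in the flanks. A control peak overlapped 3 of them (2.03%), and a PDS peak 2 (1.35%). Of all 268253 motifs in or near protein-coding genes, 2.48% overlapped a control peak and 2.62% a PDS peak. No motif inside any of the 8 genes lay in a peak, and the nearest was a DDX5 motif 1055 bp from a control peak and 815 bp from a PDS peak. The motifs were spread unevenly: RTEL1 held 75, PIF1 19, DDX11 18, WRN 14, BLM 10, BRIP1 7, DDX5 3 and DHX36 2. Per 10 kb of gene the median was 1.18 for the helicases and 1.4 for all protein-coding genes, and DHX36, BLM, BRIP1 and WRN lay between the 6.23 and 16.6 percentiles of all genes.

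**Figure D4:**
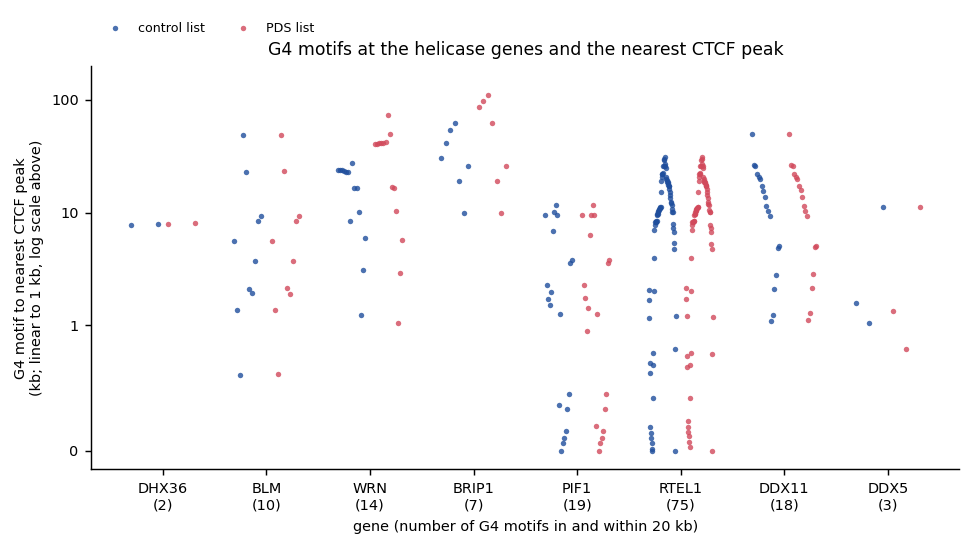
Distance in kb (linear to 1 kb, log scale above) from each G4 motif in or within 20 kb of a helicase gene to the nearest CTCF peak of the control list (blue) and the PDS list (red); numbers below the gene names count the motifs. Points at 0 are seen only for PIF1 and RTEL1, and the motifs of DHX36, WRN, BRIP1 and DDX11 all lie more than 1 kb from a peak.

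Other genes linked to G4s were counted in the same way: 18 further helicases and ATPases and 15 proteins that bind G4s or help replication past them. A start peak was found for 7 of the 33 in control cells (21.2%) and 6 in PDS-treated cells (18.2%), close to the 22.3% and 21.0% of all protein-coding genes. In 6 genes it was in both lists, 3 in each group, and 26 of the 33 had none. The highest-ranked control start peaks were those of G3BP1, a stress granule protein with helicase activity (fold 77.0, rank 817), and REV1, a translesion polymerase that helps copy G4-containing DNA (fold 61.7, rank 1955). In the PDS list they were those of DDX21, a nucleolar RNA helicase (fold 43.8, rank 541), and G3BP1 (fold 33.0, rank 2059). DHX9, an RNA and DNA helicase that unwinds several structures, was the single gene with a start peak in the control list alone, at chr1:182808721-182809020 (fold 27.8, rank 15231). By fold within the control list, the BLM start peak (rank 5120) ranked below the start peaks of G3BP1, REV1 and DDX21 (rank 4047). By fold within the PDS list it (rank 2957) ranked below those of DDX21 and G3BP1 and above that of REV1 (rank 5102).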

How the data were processed

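CTCF ChIP-seq libraries of K562 cells were processed by the authors with Bowtie2 2.2.3 on hg19. Reads that were duplicated, of low mapping quality or not uniquely mapped were removed, and PePr called 1 joint list of peaks per condition over IgG. In the deposited lists the fold over IgG is a ratio, and each peak has a p-value from the authors. No p-value exceeded 1.00e-05. The deposited score column and the adjusted p-value were not used. Peaks were ranked within each list by fold and by p-value, and positions are given 1-based. Genes came from GENCODE 44 lifted to GRCh37, with the gene start at the 5′ end of the gene record. G4 motifs and the consensus were searched in GRCh37, leaving out 24 peaks of each list on sequences not named in the reference, and duplicated blocks were found with minimap2 2.31 (Python 3.11.15, pandas 2.3.3). The scripts were tested on simulated data. No test between conditions was made, since each has 1 list. All peaks of the 8 genes were described, neighbouring genes were named after their places were seen, and the members and lists were chosen with earlier results of these data known.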

Additional observations from a re-analysis of the deposited data

How the results depend on the processing

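Of 50 values recomputed under other settings, 24 moved, which means that a count changed by over 1.5 times or that a share or median left the 95% interval of the reported one. These intervals are wide, so the other 26 include shares that changed by 2 times. The G4 share was 15.8% in control and 13.3% in PDS peaks. Searching 1000 bp around the peak middle, which reaches past the edges of most peaks, gave 15.8% and 26.7%. Loops of up to 12 nt gave 26.3% and 26.7%. The order of the G4 share between the lists thus depended on the setting. Counting peaks in the gene body alone gave 5 control and 3 PDS peaks, within 5 kb 8 and 7, and keeping only the 50% of each list that ranked best by p-value gave 11 and 9, against 19 and 15. In the gene body alone the G4 share was 0% in both lists, and 100% of PDS peaks were shared. A gap of at most 1 kb counted as sharing gave a PDS share of 100% and 0 peaks of the PDS list alone. Requiring an overlap of 50% of both peaks raised the peaks of 1 list alone to 7 (control) and 3 (PDS). Searching 200 bp around the peak middle gave G4 shares of 5.26% in control and 6.67% in PDS peaks. The consensus shares were then 5.26% and 0%. The narrowest peaks (120 bp in control, 100 bp in PDS) were shorter than this stretch. Runs of at least 2 G gave G4 shares of 84.2% and 93.3%. The G4 shares under these other settings, and the consensus shares at 200 bp, were not computed over all peaks. Allowing 1 mismatch raised the consensus shares from 10.5% and 13.3% to 47.4% and 60.0%. The PDS share was then above that of all PDS peaks (46.2%), where for exact matches it was below (14.4%). Both background shares lay inside the 95% intervals of the helicase shares (35.7 to 80.2 and 3.74 to 37.9). Loops of up to 12 nt gave 19 motifs at gene starts and 127 in gene bodies, against 9 and 55. Within 5 kb, 11 other G4-linked genes had a start peak in both lists, against 6. The share of all protein-coding genes with a start peak within 5 kb was not tabulated. The count of 11 therefore has no background beside it. Canonical transcript starts, an alternative chosen after seeing the data, left 1 helicase gene with a start peak in each list, against 2. Except where the setting itself changes what is counted, the cause was not tested.

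No paired analysis was possible because the replicates of a condition were merged in its single peak call, which also means that leaving out a replicate gave no value. With 19 and 15 peaks, the shares have wide intervals. Read depth is unknown, and the copy number of these loci in K562 was not measured.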

Other observations

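The distance between the nearest CTCF peaks on either side of a gene gives the length of the stretch that holds it, peaks inside the gene left aside. For PIF1 it was short, 24.7 kb in the control list and 24.1 kb in the PDS list, and for RTEL1 it was 64.4 kb in both. BLM (125 kb in both) and WRN (193 and 194 kb) also kept the same length. BRIP1 lay in the longest control stretch, 429 kb (486 kb in the PDS list), bordered 202 kb upstream by a strong peak of both lists, at chr17:60143281-60143880 (fold 71.8, rank 1076) and chr17:60143301-60143700 (fold 34.9, rank 1622).

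DHX36 changed most. Without the control peak in GPR149, the next PDS peak upstream lay 1000 kb away, so the stretch was 81.5 kb in the control list and 1070 kb in the PDS list. For DDX11 (131 and 105 kb) and DDX5 (105 and 49.9 kb) the PDS stretch was shorter, in each case through an upstream PDS peak without a control partner. That of DDX5 was 100 bp wide, the smallest width in the list. These lengths rest on single peaks of lists called once per condition, and their spread between replicates is not known.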
